A study of Mus musculus with 8 samples.

Results

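Transcripts of the MYC family and of its MXD and MNT antagonists were followed in 4T1 cells, a mouse triple-negative mammary carcinoma line, by RNA sequencing of poly(A)-selected RNA. The members were 10 genes of the 54532 listed, chosen by symbol: Myc, Bmyc, Mycn, Mycl, Mxd1, Mxi1, Mxd3, Mxd4, Mnt and Mlx. Of these, 9 were among the 12704 genes with more than 1 CPM (the count divided by the library total and scaled) in at least 2 libraries, and Mycn was not. All cells were 4T1 cells with a stably transfected shRNA plasmid, carrying either a scramble sequence or 1 shRNA that targets MCT-1 (the shMCT-1 line), and each line was given anti-IL-6R at 100 ng/ml, a monoclonal antibody that blocks the receptor of interleukin-6, or IgG, for 48 h. The 2 lines and the 2 treatments made 4 groups (named as line + treatment) of 2 libraries each, 8 in all. Whether a line was a clone or a pool is not given in the sources used here, so that the knockdown and the descent of the line cannot be told apart in any comparison of shMCT-1 with scramble.

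MYC proteins are transcription factors that bind the E-box in DNA as partners of MAX and activate genes of ribosome production, metabolism and cell division. The MXD proteins (Mxd1, Mxi1, Mxd3, Mxd4) and MNT take the place of MYC beside MAX and repress the same kind of sites through SIN3 and histone deacetylases, while MLX joins part of this network to the glucose-responsive Mondo factors. Bmyc is a rodent gene whose protein resembles the amino-terminal part of MYC and lacks the DNA-binding and MAX-binding end, and it is known mainly from hormone-controlled tissues such as the epididymis.

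Library totals were 24100056 to 33063535 counts in scramble and 19839255 to 23448547 in shMCT-1, so that 1 CPM rested on 19.8 to 33.1 counts. Mcts1, the mouse gene of MCT-1, had 11.8 to 15.4 CPM in the 4 scramble libraries and 4.92 to 6.70 in the 4 shMCT-1 libraries (log2 fold change -1.08 ± 0.17 (SE) with IgG, adjusted p = 0.000676, edgeR quasi-likelihood test). Of 5 epithelial markers, 4 (Epcam, Krt8, Krt18 and Cdh1) exceeded 1 CPM and Cldn7 did not. No leukocyte or endothelial marker exceeded a mean of 1 CPM, although the endothelial gene Cdh5 averaged 0.921 CPM in shMCT-1. The 3 endothelial markers summed to 0.096 to 0.332 CPM in scramble and 0.554 to 1.82 CPM in shMCT-1. Cd3e and the fibroblast gene Lum were at 0, while Pdgfra, also listed for fibroblasts, averaged 15.6 CPM in scramble and 13.5 in shMCT-1. In such bulk RNA, fewer cells that express a gene and less RNA of it per cell cannot be told apart.

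Because Myc and Bmyc resemble each other, their sequences were compared before their levels. Myc (ENSMUSG00000022346) lies at chr15:61985391-61990374 on the plus strand of GRCm38 in GENCODE release M21, and Bmyc (ENSMUSG00000049086) at chr2:25706739-25707721 on the plus strand as 1 exon of 983 bases. The 513 coding bases of Bmyc, stop codon included, aligned with the start of the 1320 coding bases of Myc, up to Myc coding base 545. Of 511 aligned bases, 404 were identical (79.1%), and gaps took up 34 bases more.

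The longest run shared by the Bmyc transcript and any of the 8 annotated Myc transcripts was 23 bases, against reads of 100 bases. No 100-base window of the 2239 in the Myc transcript Myc-205 occurred in a transcript of another gene. Among the 884 windows of Bmyc, 519 (58.7%) occurred elsewhere, all in A230005M16Rik, an antisense transcript over the same locus that had 0 counts in every library. In the sources used here the strand setting of the counting is not given, and reads of such a pair cannot then be told apart without strand. The deposited values of Myc and Bmyc were whole numbers in all 8 libraries, whereas 29.6% of all values above 0 were not.

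The RT-PCR primers that the study lists for Myc were matched to both transcripts, to see which of these genes the letters of each primer match.
Forward: tcgctgctgtcctccgagtcc
Reverse: ggtttgcctcttctccacagac
Both matched Myc without a mismatch, the forward primer at coding bases 667 to 687 and the reverse primer at 795 to 816, beyond the part that aligned with Bmyc. The nearest sites in the Bmyc transcript had 7 and 10 mismatches.

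Bmyc was found only in the shMCT-1 line. Its count was 0 in the 2 scramble + IgG libraries and 0 in the 2 scramble + anti-IL-6R libraries. It was 112 and 119 in shMCT-1 + IgG, which is 5.13 and 5.07 CPM. With anti-IL-6R the shMCT-1 libraries held 113 and 103 counts, or 5.70 and 4.69 CPM. All shMCT-1 libraries thus lay within 4.69 to 5.70 CPM and none overlapped with scramble. A count of 0 allows up to 3 counts a library, or 0.0907 to 0.124 CPM in scramble, and against the highest of these limits Bmyc was at least 37.7-fold higher in the lowest shMCT-1 library. No p-value is given for it, since the gene was tested only because its counts were high in the shMCT-1 line. These limits cover counting error only.

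Genes with this pattern were few. In 51 of the 12704 tested genes (0.401%) every scramble library was at or under 3 counts and every shMCT-1 library above 1 CPM, and in 17 genes (0.134%) the lines were the other way round. Bmyc ranked 12 of the 51 by its mean in shMCT-1, and the highest was Mga, a MAX partner that is no member. Mga had 1 count in 1 scramble library and 0 in the other 3, against 333 to 560 counts, or 16.8 to 24.7 CPM, in shMCT-1. Both lie on chromosome 2, which held 6 of the 51 genes among its 1001 tested genes and had a median log2 fold change of -0.36 with IgG, beside 0.01 over all tested genes. Around Bmyc, 28 genes within 500 kb were tested. With IgG, 2 of them were called higher and 10 lower in the shMCT-1 line, beside 28.3% of all tested genes higher and 26.2% lower. Of the 2 higher genes, Dpp7 averaged 0.479 CPM in scramble and 1.75 CPM in shMCT-1. It could not have passed the filter on low values without its shMCT-1 libraries, and its place in the count follows from that. None of the 28 genes was at the floor in scramble while above 1 CPM in every shMCT-1 library. Within 500 kb of Mga, 1 of 20 tested genes, Ltk, had this pattern.

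By the root mean square difference of centred log2 CPM over the 8 libraries, the genes most like Bmyc were Rnase4 (0.20), Tspan12 (0.21), Igfbp7 (0.23), Foxd2os (0.24) and Maged2 (0.28). Each lay on a chromosome other than that of Bmyc. Their mean in scramble was 0 CPM for Tspan12 and Foxd2os and at most 0.154 CPM for the others, and in shMCT-1 it ran from 6.21 CPM for Tspan12 to 12.6 CPM for Igfbp7, so that all 5 were near 0 in scramble. Igfbp7 is not among the 51 genes above.

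Myc itself was lower in the shMCT-1 line. It had 563 and 596 CPM in scramble + IgG and 561 and 568 in scramble + anti-IL-6R, against 433 and 374 CPM in shMCT-1 + IgG and 427 and 437 in shMCT-1 + anti-IL-6R. The highest shMCT-1 library, at 437 CPM, was under the lowest scramble library at 561 CPM. Under IgG the log2 fold change of shMCT-1 vs. scramble was -0.48 ± 0.09 (SE, n = 2 against 2, adjusted p = 0.00195, edgeR quasi-likelihood test), and between the lines under anti-IL-6R it was -0.33 ± 0.09 (adjusted p = 0.0137). The second call was lost when scramble + anti-IL-6R replicate 1 (adjusted p = 0.0724), scramble + anti-IL-6R replicate 2 (0.0823) or shMCT-1 + anti-IL-6R replicate 1 (0.0655) was left out, with log2 fold changes of -0.34, -0.33 and -0.30 in the same edgeR test. Myc and Bmyc, the first an established driver of growth and the second resembling its amino-terminal part, therefore differed between the lines in opposite directions.

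Of the 10 genes annotated within 500 kb of Myc, 2 were tested. Pvt1, the noncoding neighbour of Myc, had 15.5 to 24.01 CPM in scramble and 13.7 to 18.3 CPM in shMCT-1, and the ranges overlapped. The log2 fold change was -0.60 ± 0.16 with anti-IL-6R (adjusted p = 0.0107) and -0.09 ± 0.16 with IgG (adjusted p = 0.648, edgeR quasi-likelihood test), and the difference of the 2 did not pass (unadjusted p = 0.0504, adjusted p = 0.9999). The other neighbour, H2afy3, averaged 1.02 CPM in scramble and 0.254 CPM in shMCT-1. It could not have passed the filter on low values without its scramble libraries, so no p-value is given for it. The genes most like Myc over the 8 libraries were Sik1, Trappc12, Tarsl2, Prrc2a and Gadd45a, at root mean square differences of 0.026 to 0.041 on the log2 scale, each from another chromosome than Myc.

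Mycl (chr4:122995652-123002485, plus strand), the MYC relative first found in lung cancer, was higher in shMCT-1. Its scramble values were 6.83 and 5.15 CPM with IgG and 7.55 and 6.81 CPM with anti-IL-6R. In shMCT-1 they were 9.11 and 9.13 CPM with IgG and 11.2 and 10.5 CPM with anti-IL-6R, all above every scramble library. The log2 fold change was 0.65 ± 0.16 with IgG (adjusted p = 0.00647) and 0.65 ± 0.15 with anti-IL-6R (adjusted p = 0.00543, edgeR quasi-likelihood test). The second was no longer called without scramble + anti-IL-6R replicate 2 (0.57, adjusted p = 0.0573). Mycn (chr12:12936093-12941914, minus strand), which is known from neuroblastoma, had 0 counts in all 8 libraries, which allows up to 0.0907 to 0.151 CPM a library.

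**Figure D1:**
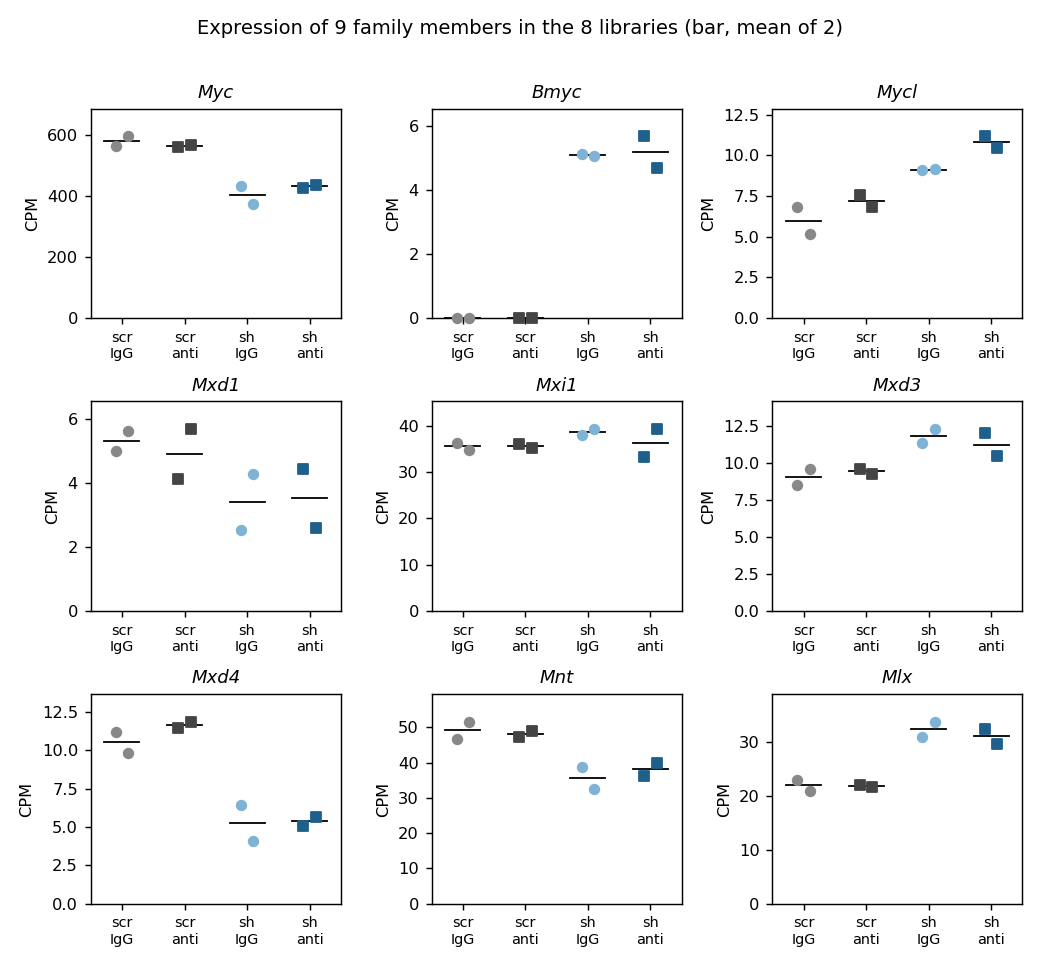
CPM (vertical axes, each from 0) of 9 members in the 8 libraries, with 1 point a library in the groups scramble (scr) and shMCT-1 (sh) with IgG or anti-IL-6R (anti) and a bar at the mean of 2. Bmyc lies at 0 in scramble and at 4.69 to 5.70 CPM in shMCT-1, Myc and Mxd4 are lower in shMCT-1, and the points of Mxd1 and Mxi1 overlap between the lines.

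Among the repressors, Mxd4 showed the largest difference. The gene lies at chr5:34173883-34187720 on the minus strand, and its protein is also called MAD4. It had 11.2 and 9.83 CPM in scramble + IgG and 11.4 and 11.9 CPM in scramble + anti-IL-6R. The values were 6.41 and 4.05 CPM in shMCT-1 + IgG and 5.09 and 5.65 CPM in shMCT-1 + anti-IL-6R. The 2 lines did not overlap, and the log2 fold change was -0.97 ± 0.19 with IgG (adjusted p = 0.00234) and -1.06 ± 0.19 with anti-IL-6R (adjusted p = 0.0014, edgeR quasi-likelihood test).

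Mnt (chr11:74830920-74845725, plus strand), the most broadly expressed of the MAX-dependent repressors, was called lower with IgG. Scramble libraries held 46.6 and 51.6 CPM with IgG and 47.4 and 49.0 CPM with anti-IL-6R, and shMCT-1 libraries 38.8 and 32.5 CPM with IgG and 36.1 and 40.0 CPM with anti-IL-6R. The lines did not overlap. With IgG Mnt fell by 0.42 ± 0.11 on the log2 scale (adjusted p = 0.00914, edgeR quasi-likelihood test), but without scramble + IgG replicate 2 the adjusted p was 0.0544 and without shMCT-1 + IgG replicate 2 it was 0.0904. The log2 fold change with anti-IL-6R was -0.28 ± 0.11 (adjusted p = 0.0502, edgeR quasi-likelihood test). This value lay at the threshold, and leaving out any 1 of the 4 IgG libraries moved it across. Those libraries enter this comparison through the filter, the normalization, the adjustment and the shared estimate of spread.

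Mxd3 (chr13:55325168-55329823, minus strand), which is known from dividing cells of the late cell cycle, moved the other way from Mxd4. It had 8.50 and 9.54 CPM in scramble + IgG, 9.60 and 9.25 CPM in scramble + anti-IL-6R, 11.3 and 12.3 CPM in shMCT-1 + IgG and 11.996 and 10.4 CPM in shMCT-1 + anti-IL-6R. Every shMCT-1 library was above every scramble library. It rose with IgG (log2 fold change 0.43 ± 0.13, adjusted p = 0.0208, edgeR quasi-likelihood test), a call lost without scramble + IgG replicate 1 (adjusted p = 0.103) or shMCT-1 + IgG replicate 2 (adjusted p = 0.125) and with DESeq2 (adjusted p = 0.0626). The value with anti-IL-6R was 0.30 ± 0.13 (adjusted p = 0.0763), called only without shMCT-1 + anti-IL-6R replicate 2 (adjusted p = 0.0399). Mxd3 overlaps Prelid1 on the other strand, which held 413 to 541 CPM, and 7 of its 8 values were not whole numbers, so that its level is less certain. The median log2 fold change of its chromosome 13 was -0.42 with IgG.

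Neither of the other MXD genes was called. Mxd1 (chr6:86647042-86669161, minus strand), induced when myeloid and epithelial cells differentiate, had 4.98 and 5.60 CPM in scramble + IgG, 4.13 and 5.69 CPM in scramble + anti-IL-6R, 2.52 and 4.26 CPM in shMCT-1 + IgG and 4.44 and 2.60 CPM in shMCT-1 + anti-IL-6R. The replicates of a shMCT-1 group lay far apart and overlapped with scramble, and the log2 fold changes of -0.59 ± 0.31 with IgG and -0.43 ± 0.31 with anti-IL-6R did not pass (adjusted p = 0.134 and 0.264, edgeR quasi-likelihood test). Mxi1 (chr19:53310518-53375810, plus strand), the gene of the MXD protein first named as a MAX interactor, ranged from 34.9 to 36.4 CPM over the scramble libraries and from 33.3 to 39.4 CPM over the shMCT-1 libraries. Its log2 fold change was 0.16 with IgG (95% confidence interval -0.05 to 0.38) and 0.08 with anti-IL-6R (-0.13 to 0.29), and these intervals leave out a change of 1.5-fold in either direction.

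Mlx (chr11:101087277-101092207, plus strand), the MAX-like partner of the Mondo proteins, was higher in shMCT-1. It had 23.0 and 20.8 CPM in scramble + IgG and 22.0 and 21.5 CPM in scramble + anti-IL-6R. The shMCT-1 libraries held 30.8 and 33.7 CPM with IgG and 32.3 and 29.6 CPM with anti-IL-6R, above all scramble libraries. The log2 fold change was 0.60 ± 0.10 with IgG (adjusted p = 0.000771) and 0.57 ± 0.10 with anti-IL-6R (adjusted p = 0.00107, edgeR quasi-likelihood test), and both calls held without any 1 library. Mlx overlaps Psmc3ip on the other strand, at 14.3 to 19.3 CPM, and none of its 8 values was a whole number.

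**Figure D2:**
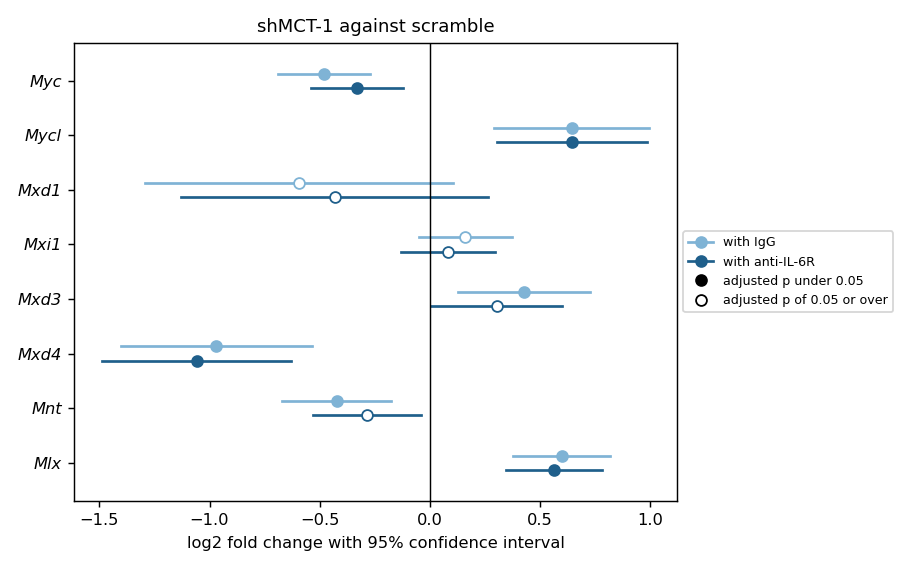
Difference between the lines as log2 fold change (horizontal axis, above 0 where shMCT-1 was higher) with its 95% confidence interval for 8 members, within IgG (light) and within anti-IL-6R (dark), filled where the adjusted p was under 0.05. Myc and Mxd4 lie to the left and Mycl and Mlx to the right with both treatments, and Bmyc is left out because scramble was at 0.

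Counted together, 7 of the 9 tested members were called between the lines under IgG, where 54.4% of all tested genes were called. Of the members 4 were higher (Bmyc, Mycl, Mxd3, Mlx) and 3 lower (Myc, Mxd4, Mnt), beside 28.3% of all genes higher and 26.2% lower. Under anti-IL-6R 5 of 9 were called, 3 higher and 2 lower, beside 54.3% of all genes, 26.9% higher and 27.3% lower. Without scramble + anti-IL-6R replicate 2 fewer members were called, and a smaller share of all tested genes was called too. The same 5 genes, Bmyc, Myc, Mycl, Mxd4 and Mlx, were called in both comparisons, which use different libraries but share the 2 lines and 1 estimate of spread. With treatment as a covariate 7 were called, beside 69% of all genes. In CPM, 7 of 9 did not overlap between the 4 shMCT-1 and the 4 scramble libraries, as 64.1% of all genes did not. These shares of members are near those of all genes, and nothing particular to the family follows from the counts. Bmyc passed the filter on low values only through the shMCT-1 libraries, and its place in these counts follows from that. The 2 libraries of a group were deposited as biological replicates, and since the sources used here do not tell how their cultures were kept apart, the p-values measure the spread between these libraries only.

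Anti-IL-6R changed no member detectably in either line. In the scramble line the mean of Myc was 579.6 ± 23.7 CPM (SD, n = 2) with IgG and 564 ± 4.81 CPM with anti-IL-6R, and it was 403 ± 42.2 and 432 ± 6.66 CPM in shMCT-1. The response of Myc to the antibody was -0.05 on the log2 scale in scramble (95% confidence interval -0.26 to 0.16) and 0.10 in shMCT-1 (-0.10 to 0.31), and the interaction was 0.15 (-0.14 to 0.45). Bmyc was 5.10 ± 0.0361 CPM in shMCT-1 + IgG and 5.19 ± 0.712 CPM in shMCT-1 + anti-IL-6R, a log2 fold change of 0.03 (-0.52 to 0.58). With edgeR's quasi-likelihood test 0 of 9 members were called within scramble, within shMCT-1 or in the interaction, beside 0 of all 12704 genes (0%) in each. Bmyc, with 0 counts in every scramble library, had no value within scramble or in the interaction and could not be called there. At an unadjusted p under 0.05 stood 0 members in each, beside 1.31%, 3.98% and 2.48% of all genes. DESeq2 called 0 members in all 3 and edgeR's exact test 0 within either line. Over all genes DESeq2 called 0 within scramble, 11 within shMCT-1 and 6 in the interaction. The exact test called 10 within scramble and 14 within shMCT-1.

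Mycl had the largest log2 fold change for the antibody among the members in each line. It went from 5.99 ± 1.19 to 7.18 ± 0.528 CPM in scramble (log2 fold change 0.25, 95% confidence interval -0.10 to 0.60) and from 9.12 ± 0.013 to 10.8 ± 0.508 CPM in shMCT-1 (0.25, -0.09 to 0.60). Across both lines the fit gave 0.25 ± 0.10 (unadjusted p = 0.0336, adjusted p = 0.995, edgeR quasi-likelihood test). The CPM values of IgG and anti-IL-6R overlapped in scramble and not in shMCT-1. This was the only member with an unadjusted p under 0.05 in the comparison of anti-IL-6R with IgG across both lines, in which 355 of all genes (2.79%) reached it and 0 passed the adjusted threshold. For Mycl, Mxd1, Mxd4 and Bmyc the intervals reached beyond 0.5 on the log2 scale in each line that had a value, so that responses within these intervals could not be detected with 2 libraries a group.

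**Figure D3:**
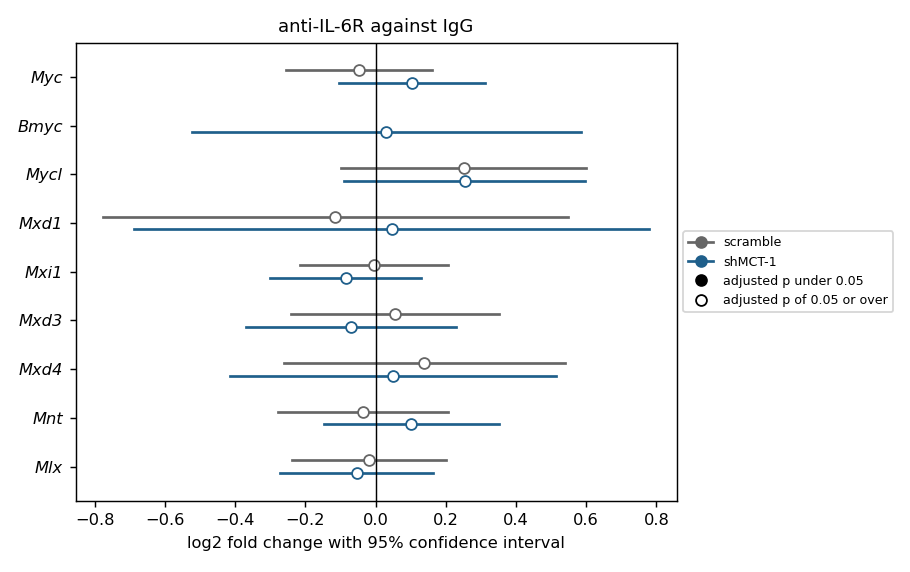
Log2 fold change of anti-IL-6R against IgG (horizontal axis) with its 95% confidence interval for 9 members in the scramble (grey) and shMCT-1 (blue) lines. Bmyc is drawn for shMCT-1 only, since scramble was at 0. All points are open, since no adjusted p was under 0.05, all intervals span 0, and the widest are those of Mxd1.

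Levels of different members were compared as CPM per kb of merged exons, since a longer transcript yields more reads. This length merged every annotated exon, from 0.983 kb for Bmyc to 8.48 kb for Mxd4, whichever transcripts were expressed. The order of the members and their summed levels depend on that choice. In scramble Myc led at 210 ± 6.11 CPM per kb (SD, n = 4), followed by Mlx at 10.9 ± 0.448 and Mnt at 10.5 ± 0.476, whose ranges overlapped. Below them came Mxi1 at 5.23, Mxd3 at 3.89, Mycl at 1.63, Mxd4 at 1.31 and Mxd1 at 0.721 CPM per kb, of which only the neighbours Mycl and Mxd4 overlapped. In shMCT-1 the order was Myc at 154 ± 10.9, Mlx at 15.8, Mnt at 7.96, then Mxi1 at 5.50, Bmyc at 5.24 and Mxd3 at 4.86 CPM per kb with overlapping ranges, then Mycl at 2.47, and Mxd4 at 0.625 with Mxd1 at 0.488 CPM per kb, which overlapped too. Bmyc, absent from scramble, therefore stood on this scale among Mxi1 and Mxd3 and at a small share of Myc.

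**Figure D4:**
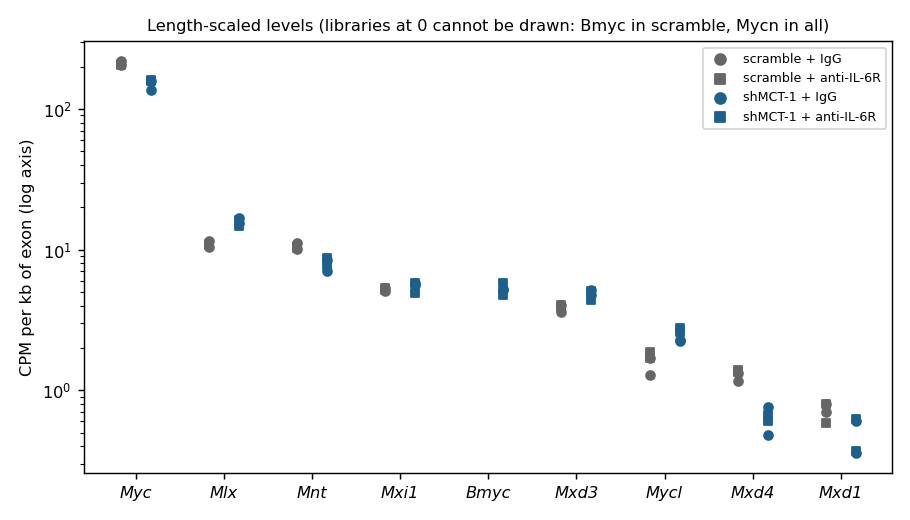
CPM per kb of merged exons (vertical axis, logarithmic) of 9 members, ordered by their mean in shMCT-1, with 1 point a library for scramble (grey) and shMCT-1 (blue). Myc stands above 137 CPM per kb in every library, all others stay under 17, and Bmyc has points in shMCT-1 only.

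Myc supplied 98.3 to 99.4% of the summed CPM per kb of Myc, Mycn and Mycl in every library. Mnt gave the largest share of the summed repressors Mxd1, Mxi1, Mxd3, Mxd4 and Mnt, 47.6 to 50.1% in scramble and 36.8 to 43.5% in shMCT-1. The MYC sum was 9.63 to 9.93 times the repressor sum in the 4 scramble libraries and 7.34 to 8.43 times in the 4 shMCT-1 libraries, with no overlap. This ratio of transcripts is a description and was given no test. Max, the partner that both sides need, had 24.2 to 29.5 CPM per kb in scramble and 23.4 to 25.6 CPM per kb in shMCT-1, and was not called with either treatment (adjusted p = 0.355 and 0.589, edgeR quasi-likelihood test).

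The other partners of the network differed in both directions. Mlxip, the Mondo protein MondoA, which pairs with MLX and senses glucose phosphates, had 74.8 to 93.1 CPM in scramble and 48.4 to 53.5 CPM in shMCT-1 (log2 fold change -0.58 ± 0.10 with IgG and -0.73 ± 0.10 with anti-IL-6R, adjusted p = 0.00112 and 0.000309, edgeR quasi-likelihood test). Txnip, a textbook MondoA target that limits glucose uptake, fell from 19.3 to 22.7 CPM in scramble to 11.7 to 13.7 CPM in shMCT-1 (log2 fold change -0.66 with IgG and -0.81 with anti-IL-6R, adjusted p = 0.000977 and 0.000327, edgeR quasi-likelihood test). Arrdc4, the other such target, had 0 counts in the 4 scramble libraries and 25 to 27 counts, or 1.11 to 1.36 CPM, in shMCT-1. Txnip was therefore lower and Arrdc4 higher in the shMCT-1 line. Arrdc4 was close to the limit of 1 CPM and passed the filter only through the shMCT-1 libraries. Mlxipl, the gene of ChREBP, had at most 1 count in any library.

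MYC, MXD and MLX proteins share the E-box as their site, so the letters CACGTG, which read the same on both strands, were looked up in the RefSeq promoters of GRCm38.p6, each running from 250 bases before to 50 bases after a gene's start. Myc had no entry and was not searched. Of the other 9 members, with 11 promoters, 3 held the motif, beside 7.15% of all 32851 promoters. They were Mxd4, Mnt and Mlx, which are shown on their own strands with the E-box in capitals, beginning at positions -219, -123 and -40 from the start.
Mxd4, chr5:34187912-34187941, minus strand: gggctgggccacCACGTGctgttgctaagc
Mnt, chr11:74830789-74830818, plus strand: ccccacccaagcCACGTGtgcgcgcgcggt
Mlx, chr11:101087238-101087267, plus strand: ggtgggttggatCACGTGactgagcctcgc
Of these 3, Mxd4 and Mnt were lower and Mlx higher in shMCT-1 + IgG. The letters were not in this window of Bmyc, Mycl, Mycn, Mxd1, Mxd3 or Mxi1. The E2F motif TTCCCGC, searched on both strands as TTCCCGC and GCGGGAA, was in 1 of the 11 promoters searched, that of Mxd3, beside 4.6% of all promoters. A match of letters is a description and does not show binding.

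Genes that act with or against MYC were counted by list, and each count stands beside a background of 54.4% of all tested genes called with IgG, 28.3% higher and 26.2% lower, and of 54.3% called with anti-IL-6R. Nothing particular to a list is read from its count. Of 11 MYC coactivators, 1 was higher and 5 were lower in shMCT-1 + IgG, with a list median of -0.09 on the log2 scale beside 0.01 over all tested genes. Trrap, the scaffold of MYC-bound acetyltransferases, went from 255 ± 22.6 to 156 ± 8.80 CPM (log2 fold change -0.67, adjusted p = 0.00231), and its partner Ep400 from 254 ± 0.0875 to 133 ± 8.67 CPM (-0.89, adjusted p = 0.000557, edgeR quasi-likelihood test), while Ruvbl2, an ATPase of the same complexes, rose from 219.6 ± 7.41 to 249 ± 8.54 CPM (0.23, adjusted p = 0.0369, edgeR quasi-likelihood test).

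The corepressors that MXD and MNT recruit were split. Of 6 genes 2 were higher, Hdac1 (log2 fold change 0.39) and Sin3b (0.31), and 2 lower, the SIN3 scaffold Sin3a (-0.46) and the nuclear receptor corepressor Ncor1 (-0.94), in shMCT-1 + IgG, with a list median of 0.02. All 4 were called in the same direction with anti-IL-6R.

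Among 11 genes that act on MYC protein stability, 2 were higher and 5 lower in both comparisons of the lines, beside 54.4% and 54.3% of all genes called, with a median of -0.25 with IgG. Ppp2r5a, a phosphatase subunit that acts on MYC, rose from 76.7 ± 1.81 to 101 ± 0.274 CPM (log2 fold change 0.44, adjusted p = 0.00109, edgeR quasi-likelihood test). Huwe1, a large ubiquitin ligase with MYC among its substrates, fell from 711 ± 12.2 to 301 ± 20.3 CPM (-1.20, adjusted p = 0.000297, edgeR quasi-likelihood test), and the kinase Gsk3b, which marks MYC for degradation, from 73.3 ± 2.58 to 52.2 ± 1.39 CPM (-0.45). These values are with IgG. In shMCT-1 + anti-IL-6R the libraries lay further apart for Huwe1 (325 ± 100 CPM), Trrap (163 ± 37.1), Ep400 (139 ± 34.3) and Ncor1 (136 ± 45.3). The merged exons of these genes are long, at 23.5, 20.9, 14.0 and 12.8 kb in that order. Those of Ppp2r5a and Ruvbl2, which were higher, take up 9.61 and 2.90 kb. Whether transcript length or RNA quality bears on these differences was not tested.

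Of 18 textbook MYC targets in the nucleolus and ribosome biogenesis, 4 were higher, 2 lower and 12 not called with IgG, beside 54.4% of all tested genes called, with a median of -0.04. Grwd1 (0.58) and Bop1 (0.38), both needed for ribosome assembly, rose, and the RNA polymerase I subunit Polr1b (-0.74) fell. With anti-IL-6R 5 were higher and 1 lower, with a median of 0.11.

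Metabolic targets divided in the same way, with 4 higher, 3 lower and 7 not called of 14 with either treatment. The lactate dehydrogenase Ldha rose from 1201 ± 183 to 2162 ± 71.8 CPM with IgG (log2 fold change 0.89, adjusted p = 0.00021, edgeR quasi-likelihood test), and the nucleoside diphosphate kinase Nme1 also rose (0.81). In contrast, Odc1, the first enzyme of polyamine synthesis and a classic MYC target, fell from 1894 ± 34.4 to 1093 ± 47.5 CPM (-0.75, adjusted p = 9.9e-05, edgeR quasi-likelihood test), as did the pyrimidine enzyme Cad (-0.37).

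Of 8 cell cycle and translation targets 4 were higher and 2 lower with either treatment, with medians of 0.18 and 0.29. The G1 kinase Cdk4 rose from 280.3 ± 15.3 to 431 ± 4.83 CPM (log2 fold change 0.66, adjusted p = 0.000311, edgeR quasi-likelihood test) and the cap-binding factor Eif4e also rose (0.28), while Cdca7 (-0.54) and the cyclin Ccnd2 (-0.28) fell. Of 4 tested genes that MYC is known to repress, the CDK inhibitor Cdkn1a rose (0.52), and Gadd45a (-0.43) and the CDK inhibitor Cdkn1b (-0.34) fell. No gene of these lists was called for anti-IL-6R in either line or in the interaction with edgeR's quasi-likelihood test. Of all 12704 tested genes 0 (0%) were called in each of these comparisons too, so nothing particular to the lists follows. The list medians of the antibody's log2 fold change lay between -0.08 and 0.07 within the lines.

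**Figure D5:**
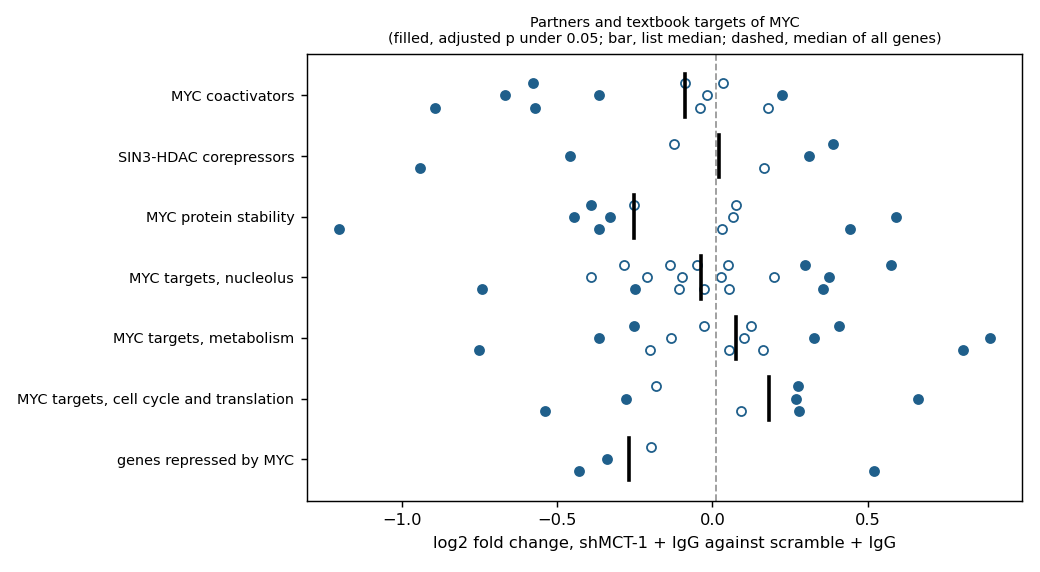
Log2 fold change of shMCT-1 + IgG against scramble + IgG (horizontal axis) for 7 lists of MYC cofactors and textbook targets, with 1 point a gene, filled where the adjusted p was under 0.05, a bar at each list median and a dashed line at the median of all tested genes (0.01). Points of every list lie on both sides of 0, from Huwe1 at -1.20 to Ldha at 0.89.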

How the data were processed

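RNA of 8 libraries was sequenced in pairs of 100-base reads. The authors used cutadapt 1.18 for trimming, STAR 2.7.0d for alignment to mm10 and RSEM for counting, and deposited gene-level expected counts without normalization. Whether molecular identifiers were used in counting is not given in the sources used here. Of values above 0, 29.6% were not whole, and all were rounded. Symbols, coordinates and exon lengths came from GENCODE M21 on GRCm38, in which 54409 identifiers were found without version and 53229 with it, whereas the authors used release M19. Groups were taken from the labels.

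Genes above 1 CPM in 2 or more libraries were normalized by TMM (factors 0.976 to 1.03) and fitted with the quasi-likelihood functions of edgeR 4.0.16 (R 4.3.3) as 4 group means over all 8 libraries, and additively in line and treatment. The Benjamini-Hochberg adjustment ran over all 12704 genes, and an adjusted p under 0.05 was a call. CPM used library totals. A gene was at the floor with 3 counts or fewer in each library. The test was checked on simulated counts.

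Named genes were the members, Mcts1, Max, Mga, Mlxip, Mlxipl, Txnip, Arrdc4 and Pvt1, up to 2 genes with the highest and 2 with the lowest fold change of each list among those called alike with both treatments, the 5 genes most like Bmyc and like Myc, and neighbours within 500 kb. Some items that these rules name are not reported here. The members and the lists, which come from textbook knowledge, were chosen with earlier results of these data known. Alternatives were DESeq2 1.42.0, edgeR's exact test, RLE size factors, 3 other filters, the 4 compared libraries alone, a replicate block, no mitochondrial genes, unrounded values and leaving out each library. Replicates differed by more than sampling noise in each group. Sequences were aligned with Biopython 1.88. The authors' own comparison columns, held in supplements, were not used.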

Additional observations from a re-analysis of the deposited data

How the results depend on the processing

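Over the alternatives other than leaving out 1 library, 6 to 8 members were called between the lines under IgG and 5 or 6 under anti-IL-6R, and 7 or 8 with treatment as a covariate. Leaving out 1 library gave 5 to 7, 3 to 6 and 7 to 9. The number of all tested genes called moved with the setting too. Under IgG it was 6912 of 12704 in the fit used above, 6474 of 12704 with DESeq2 and 7600 of 27528 without a filter. Under anti-IL-6R it was 6894, 6490 and 7780 in the same order, and with treatment as a covariate 8764, 8644 and 10224. It also differed between the fits that left out 1 library. Nothing particular to the family is read from these ranges of members. Fits with the replicate number as a block called 7 members under IgG, 5 under anti-IL-6R and 0 for the antibody, as without the block. Of all 12704 tested genes these fits called 7035, 7017 and 0 in the same order. Whether same-numbered libraries were paired is not given in the sources used here. The correlations of their deviations from the group means ran from -0.080 to 0.106, which cannot settle it. Without a filter on low counts Mxd1 was also called under IgG (-0.58, adjusted p = 0.0353, edgeR quasi-likelihood test). Mnt under anti-IL-6R passed in 8 alternatives. The antibody's effects rest on 2 libraries a group, and what depth adds to their intervals was not tested.

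Directions turned only in values that did not pass. Without a filter, the antibody's log2 fold change within scramble was 0.019 for Mxi1 and 0.0059 for Mlx, and the interaction of Mycl was -0.0020, beside -0.0057 with at least 7 libraries above 1 CPM and -0.0049 with the replicate block. Leaving out 1 library, the difference between the lines under anti-IL-6R ran from -0.026 to 0.21 for Mxi1. The antibody's effect within scramble then ran from -0.11 to 0.012 for Myc, -0.36 to 0.093 for Mxd1, -0.043 to 0.16 for Mxd3, -0.029 to 0.019 for Mxi1, -0.12 to 0.056 for Mnt and -0.070 to 0.037 for Mlx. Within shMCT-1 it ran from -0.11 to 0.18 for Bmyc, -0.38 to 0.48 for Mxd1, -0.17 to 0.045 for Mxd3, -0.25 to 0.41 for Mxd4, -0.20 to 0.035 for Mxi1, -0.022 to 0.23 for Mnt and -0.12 to 0.021 for Mlx. The interaction ran from -0.20 to 0.17 for Mycl, -0.25 to 0.60 for Mxd1, -0.39 to 0.27 for Mxd4, -0.18 to 0.051 for Mxi1 and -0.10 to 0.050 for Mlx. The cause was not tested.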
